A study of Mus musculus with 16 samples.

Results

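The Toll-like receptors Tlr1 to Tlr9 and their adaptor Myd88 were examined in mouse brown and white fat. The 10 genes were taken by symbol, as the probe sets whose platform annotation gives exactly 1 of these names. All 10 were on the array, with 16 of its 45101 probe sets. Tlr4 had 4 probe sets, Tlr7 had 3, Tlr3 had 2 and the other 7 genes had 1 each. Gene expression had been measured on 16 Affymetrix mouse arrays, 8 of interscapular brown adipose tissue (BAT) and 8 of white adipose tissue from the subcutaneous depot (sWAT). The mice were LACA mice, the A-strain of the Laboratory Animal Centre, labelled male, weighing 25 ± 3 g, fed standard chow and untreated, and their age is not given in the sources used here. Each tissue had 4 replicates with 2 arrays per replicate, 1 labelled biological and 1 labelled technical, which were averaged. No transgene, deletion or treatment distinguished the groups, so tissue was the only labelled difference. The methods describe both tissues taken from each of 4 mice, but the labels do not tie a replicate number to an animal.

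Values are log2 values from which the authors had subtracted each probe set's median over the 16 arrays. They therefore give the difference between samples and no level, so that one gene cannot be set against another and no gene can be called absent. A difference is BAT minus sWAT, with its standard error, from limma, blocked on the replicate number, at n = 4 replicates per tissue. The p-values were adjusted by Benjamini-Hochberg over all 45101 probe sets, and a probe set was called at an adjusted p under 0.05.

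Several replicates stood apart. The second array of BAT replicate 1 and the first array of sWAT replicate 3 had low 5′ relative to 3′ signal for Gapdh and Actb. The log2 difference was -3.56 and -4.79, against 0.19 and 0.18 on their partner arrays. Degraded RNA can give this pattern, but the paper reports that its RNA was intact, and the cause was not tested. Between each of these arrays and its partner r was 0.51 and 0.34, against 0.85 to 0.92 for the other replicates. All mice are labelled male, yet Xist, the RNA by which female cells silence an X chromosome, was between 5.74 and 6.36 in BAT replicates 1 to 3. It was -0.26 in BAT replicate 4, against -0.27 to -0.11 in the sWAT replicates. The Y-linked Eif2s3y was -2.94, -3.16 and -3.21 in BAT replicates 1 to 3 and 0.40 in BAT replicate 4. In the sWAT replicates it was -0.05 to 0.26, and the Y-linked Kdm5d and Uty were called lower in BAT as well. For BAT replicates 1 to 3, tissue and the sex read from these genes cannot be told apart. Results on the receptors are therefore also given without the arrays of low 5′ signal and with BAT replicate 4 alone. Of the tissue markers, 8 of 8 brown adipocyte genes were higher in BAT, as were 10 of 10 skeletal muscle fibre genes. BAT replicate 4 also stood apart in these lists. Its brown adipocyte list averaged 1.61, against 2.98 to 3.18 in the other BAT replicates, and its muscle list 3.98, against 2.28 to 3.33. Fits with BAT replicate 4 alone therefore do not isolate the Xist difference. Lower in BAT were all 11 measured markers of B cells, all 10 of T cells and 6 of 7 of lymph node vessels and stroma. Cr2 is in both the B cell and the lymph node lists. Of 7 measured adipocyte genes 1 was lower and 2 were higher, and of 6 endothelial genes 0 were lower and 1 was higher.

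Toll-like receptors are sensors of innate immunity that recognise conserved molecules of microbes. Tlr1, Tlr2, Tlr4, Tlr5 and Tlr6 act at the cell surface on lipoproteins, lipopolysaccharide and flagellin, whereas Tlr3, Tlr7, Tlr8 and Tlr9 act in endosomes on nucleic acids. Most of them signal through Myd88, which recruits IRAK kinases and leads to NF-κB activation and cytokine production, while Tlr3 uses the adaptor Ticam1. In adipose tissue, macrophages and other immune cells express many of these receptors, and Tlr4 is also known in adipocytes for its response to saturated fatty acids.

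Of the 16 probe sets, 7 were lower in BAT than in sWAT and 0 were higher. The 7 belonged to 6 genes, namely Tlr1, Tlr2, Tlr4, Tlr6, Tlr7 and Myd88. Thus 43.8% of the members' probe sets were called lower, against 17.3% of all probe sets on the array, and none was called higher, against 15.1% of all. The median difference was -0.58 over the members' probe sets and 0.13 over all probe sets. In 6 of the 16 probe sets every BAT replicate lay below every sWAT replicate, which held for 17.7% of all probe sets. In 2 of the 16 every BAT replicate lay above every sWAT replicate, which held for 23.2% of all probe sets, and in 8 the groups overlapped. The calls did not all hold under other settings. With 3′ Gapdh and Actb as the scale, 3 of the 7 held, for Tlr1, Tlr6 and Tlr7 1422010_at, while calls lower in BAT over all probe sets dropped to 11.6%. That scale shifts every difference by the same small amount, to -0.82 for Tlr2 and -0.80 for Myd88. Its fit gave the probe sets 1 common standard error of 0.33, against a median of 0.16 in the main fit. Calls on that scale therefore follow the size of the difference and do not measure the spread of each probe set. By the paired test of the methods 2 held, for Tlr1 and Tlr7 1422010_at, with 6.37% of all probe sets called lower. The first arrays alone gave 5 of the 7 and the second arrays alone gave 6, with 15.1% and 15.6% of all probe sets called lower. In whole tissue, fewer cells of a type that expresses a receptor and less RNA of that receptor per cell cannot be told apart.

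**Figure D1:**
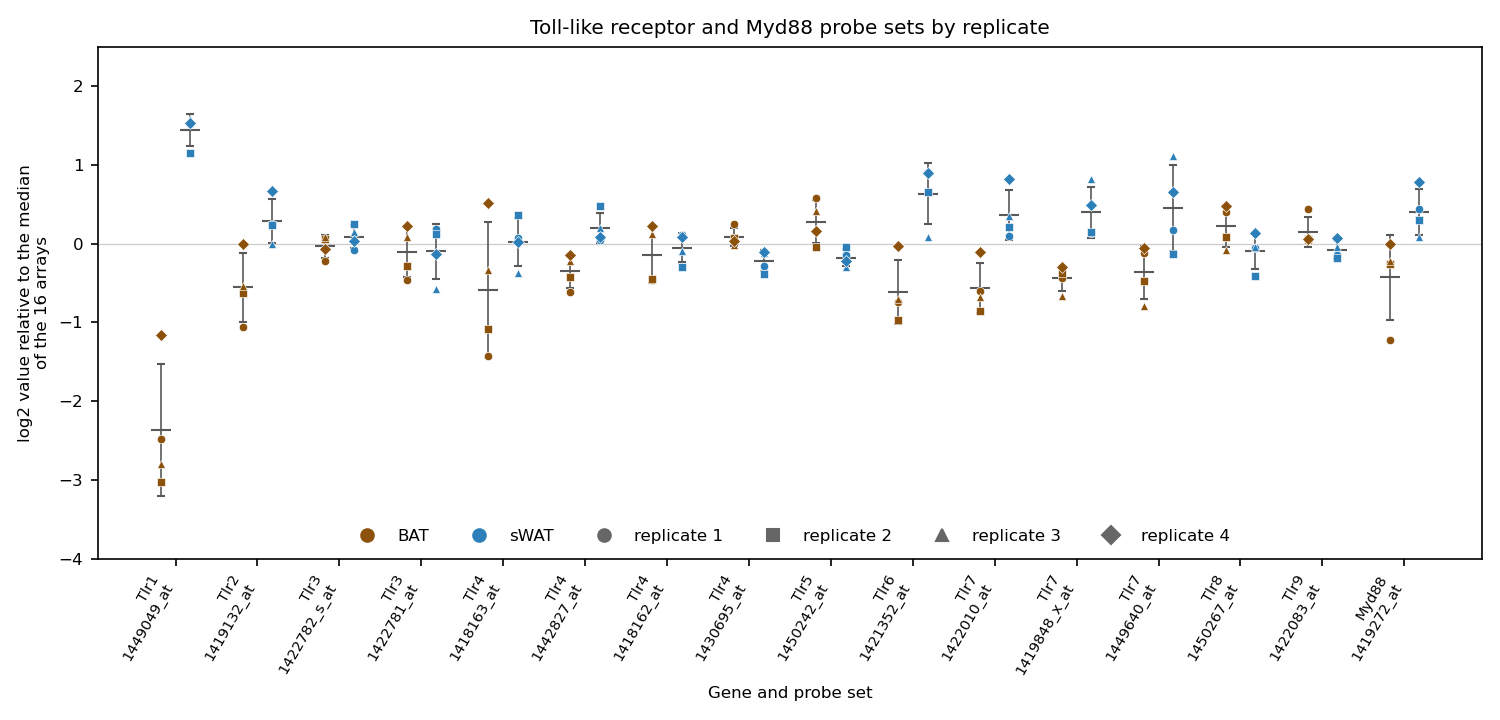
Values of the 16 probe sets in the 4 BAT replicates (brown, left of each pair) and the 4 sWAT replicates (blue, right), as log2 relative to the median of the 16 arrays, with bars for mean ± SD and marker shapes for replicate numbers. Tlr1 separates the tissues by the widest margin, and BAT replicate 4 (diamond) is the highest BAT replicate in all 7 probe sets called lower.

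Tlr1, Tlr2 and Tlr6 form the lipoprotein sensors, since Tlr2 pairs with Tlr1 for triacylated and with Tlr6 for diacylated lipopeptides. All 3 were lower in BAT. Tlr1 and Tlr6 lie next to each other on chromosome 5, with 0 protein-coding genes between them, whereas Tlr2 lies on chromosome 3. Because these genes moved together, the 250 bases before their annotated starts are shown from RefSeq on GRCm38.p6, taking the first listed start of Tlr1 and Tlr6, which have 2 each. Capitals mark any match, on either strand, to GAGGAA (the core bound by the myeloid and B cell factor PU.1), GGGNNNNNCC (an NF-κB type site), GAAANNGAAA (an interferon-stimulated response element) or TATAAA (the TATA box).
Tlr1, chr5:64933559-64933808, minus strand: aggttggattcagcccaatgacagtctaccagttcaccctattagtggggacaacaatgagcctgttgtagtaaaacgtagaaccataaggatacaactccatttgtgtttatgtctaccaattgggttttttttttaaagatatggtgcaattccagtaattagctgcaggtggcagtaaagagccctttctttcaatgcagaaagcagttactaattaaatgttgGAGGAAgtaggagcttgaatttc
Tlr6, chr5:64959167-64959416, minus strand: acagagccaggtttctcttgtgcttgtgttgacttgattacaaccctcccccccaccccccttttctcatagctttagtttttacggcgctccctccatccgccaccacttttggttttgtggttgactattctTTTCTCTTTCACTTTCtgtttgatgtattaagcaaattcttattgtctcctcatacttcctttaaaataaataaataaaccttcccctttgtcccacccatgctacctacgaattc
Tlr2, chr3:83841609-83841858, minus strand: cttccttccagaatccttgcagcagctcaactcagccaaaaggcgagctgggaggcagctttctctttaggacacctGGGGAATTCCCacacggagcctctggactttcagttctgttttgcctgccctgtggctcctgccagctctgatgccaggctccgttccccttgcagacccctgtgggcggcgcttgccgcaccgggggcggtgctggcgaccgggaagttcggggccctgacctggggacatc
In Tlr1 the capitals are a GAGGAA at -23 to -18 from the start, a motif present in 23.3% of 32851 promoter windows of the same length. In Tlr6 they are 2 overlapping GAAANNGAAA matches on the opposite strand between -116 and -101, a motif in 2.98% of the windows. In Tlr2 they are 3 overlapping GGGNNNNNCC matches between -173 and -163, a motif in 45.8% of the windows. The windows hold 1 CpG in Tlr1, 4 in Tlr6 and 11 in Tlr2. Of the windows not shown, the second of Tlr1 held 0 matches and the second of Tlr6 held 1 GGGNNNNNCC and 3 TATAAA, while those of Tlr3 and Tlr5 held 2 and 1 GGGNNNNNCC and that of Tlr8 held 1 GAGGAA and 2 TATAAA. A match describes the letters only, and binding was not measured.

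Tlr1 stood at -2.48, -3.03, -2.79 and -1.15 in BAT replicates 1 to 4, against 1.52, 1.15, 1.58 and 1.53 in sWAT replicates 1 to 4. The groups were more than 2 log2 units apart, with BAT replicate 4 nearest to sWAT. The difference was -3.81 ± 0.28, or 14.0-fold lower in BAT (adjusted p = 0.000159), and only 0.370% of all probe sets had a lower difference. It was -3.86 ± 0.29 without the arrays of low 5′ signal (adjusted p = 0.000105) and -2.60 ± 0.21 for BAT replicate 4 against the sWAT replicates (adjusted p = 0.00189). Of the 16 probe sets, that of Tlr1 was the only one called in that last fit, which called 9.72% of all probe sets lower.

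Tlr6 stood at -0.74, -0.97, -0.70 and -0.02 in the BAT replicates, against 0.91, 0.65, 0.09 and 0.90 in the sWAT replicates. The groups did not overlap, but BAT replicate 4 and sWAT replicate 3 came close to each other. The difference was -1.25 ± 0.19, or 2.37-fold lower in BAT (adjusted p = 0.00302). It was -1.21 ± 0.21 without the arrays of low 5′ signal (adjusted p = 0.00351) and -0.66 ± 0.34 for BAT replicate 4 alone (adjusted p = 0.233). Tlr2, the shared partner, stood at -1.05, -0.63, -0.54 and 0.00 in the BAT replicates, against 0.25, 0.24, -0.0037 and 0.67 in the sWAT replicates. Here the groups met, with BAT replicate 4 level with sWAT replicate 3. BAT was lower within each of the 4 numbers, but samples of equal number are not known to be 1 animal. The difference was -0.84 ± 0.17, or 1.79-fold lower in BAT (adjusted p = 0.00808). It was -0.77 ± 0.11 without the arrays of low 5′ signal (adjusted p = 0.00187), and -0.29 ± 0.26 for BAT replicate 4 alone (adjusted p = 0.488).

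Tlr4, the lipopolysaccharide receptor on chromosome 4, was measured by 4 probe sets that did not move together. Probe set 1442827_at stood at -0.62, -0.43, -0.22 and -0.14 in the BAT replicates, against 0.05, 0.48, 0.20 and 0.09 in the sWAT replicates. All BAT values lay below all sWAT values, by a small margin, and the difference of -0.55 ± 0.16 was called (adjusted p = 0.0338). Without the arrays of low 5′ signal it was -0.57 ± 0.14 (adjusted p = 0.0157). The call was lost without replicate 1, 2 or 3, at differences of -0.52, -0.44 and -0.60 (adjusted p = 0.101, 0.175 and 0.0518). Probe set 1418163_at stood at -1.43, -1.09, -0.33 and 0.51 in the BAT replicates, against 0.07, 0.37, -0.38 and 0.02 in the sWAT replicates. BAT replicates 1 and 2 were low and BAT replicate 4 was higher than every sWAT replicate, and the difference of -0.60 ± 0.36 was not called (adjusted p = 0.225). For BAT replicate 4 alone the same probe set gave 0.49 ± 0.28 (adjusted p = 0.278). Probe set 1418162_at differed by -0.09 ± 0.17 (adjusted p = 0.698). Probe set 1430695_at ran the other way, at 0.25, 0.08, -0.02 and 0.03 in the BAT replicates, against -0.28, -0.38, -0.12 and -0.10 in the sWAT replicates. All BAT values were above all sWAT values, but the difference of 0.30 ± 0.14 was not called (adjusted p = 0.144). Across the 8 replicates it correlated with 1442827_at at r = -0.92 and with 1418163_at at r = -0.72, while those 2 correlated with each other at r = 0.77. These correlations are descriptions over replicates of both tissues. Averaged over its 4 probe sets Tlr4 differed by -0.24 ± 0.16 and was not called (adjusted p = 0.258 over genes), so no single direction can be given for the gene.

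**Figure D2:**
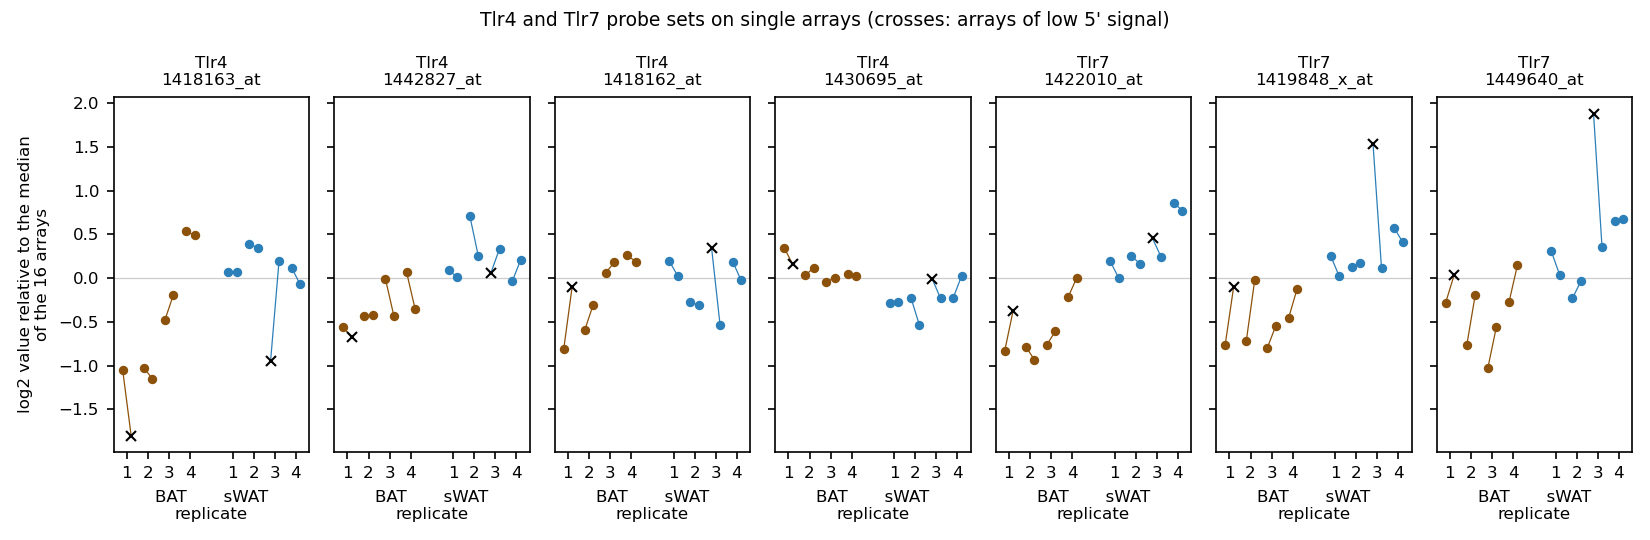
Values of the 4 Tlr4 and 3 Tlr7 probe sets on each of the 16 arrays, as log2 relative to the median of the arrays, with the 4 BAT replicates on the left of each panel, the 4 sWAT replicates on the right, and the 2 arrays of a replicate joined by a line. Crosses mark the 2 arrays of low 5′ signal, of which that of sWAT replicate 3 reads 1.88 for Tlr7 probe set 1449640_at where its partner reads 0.36.

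Tlr5, the receptor for bacterial flagellin, had the highest difference of the 10 genes. It stood at 0.58, -0.03, 0.42 and 0.16 in the BAT replicates, against -0.14, -0.04, -0.30 and -0.22 in the sWAT replicates. The groups did not overlap, but BAT replicate 2 and sWAT replicate 2 were less than 0.01 apart. The difference of 0.45 ± 0.17 was not called with the replicate block (adjusted p = 0.0764) and was called without it (adjusted p = 0.0342). Without the arrays of low 5′ signal it was 0.51 ± 0.18, not called over probe sets (adjusted p = 0.0559) but called over genes (adjusted p = 0.0456), and for BAT replicate 4 alone it was 0.33 ± 0.17 (adjusted p = 0.226).

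Among the endosomal receptors, Tlr7, which senses single-stranded RNA, was lower in BAT by 2 of its 3 probe sets. Probe set 1422010_at stood at -0.60, -0.86, -0.68 and -0.11 in the BAT replicates, against 0.10, 0.21, 0.35 and 0.82 in the sWAT replicates. The groups did not overlap and BAT replicate 4 was again the highest of BAT. The difference was -0.93 ± 0.14, or 1.91-fold lower in BAT (adjusted p = 0.00230). It was -0.96 ± 0.11 without the arrays of low 5′ signal (adjusted p = 0.000569) and -0.48 ± 0.29 for BAT replicate 4 alone (adjusted p = 0.302). Probe set 1419848_x_at, whose suffix marks probes that may bind other transcripts, stood at -0.43, -0.37, -0.67 and -0.29 in the BAT replicates, against 0.14, 0.15, 0.82 and 0.49 in the sWAT replicates. Again no BAT value reached an sWAT value, and the difference was -0.84 ± 0.19 (adjusted p = 0.0150). It was -1.30 on the first arrays alone (adjusted p = 0.0123) and -0.38 on the second (adjusted p = 0.126), the first array of sWAT replicate 3 reading 1.53 and its partner 0.12. Without the arrays of low 5′ signal it was -0.75 ± 0.12 (adjusted p = 0.00260). Probe set 1449640_at stood at -0.12, -0.48, -0.79 and -0.06 in the BAT replicates, against 0.17, -0.13, 1.12 and 0.66 in the sWAT replicates. These groups overlapped at sWAT replicate 2, and the difference of -0.82 ± 0.27 was not called (adjusted p = 0.0591). It was called without the replicate block (adjusted p = 0.0393) and, at -0.67 ± 0.16, without the arrays of low 5′ signal (adjusted p = 0.0139). The 3 probe sets correlated with one another at r = 0.81 to 0.94 over the 8 replicates.

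Tlr8, the neighbour of Tlr7 on the X chromosome, was not called. Tlr8 stood at 0.40, 0.09, -0.08 and 0.49 in the BAT replicates, against -0.05, -0.40, -0.05 and 0.13 in the sWAT replicates. The groups overlapped and the difference of 0.32 ± 0.15 was not called (adjusted p = 0.139). It was 0.17 ± 0.15 without the arrays of low 5′ signal (adjusted p = 0.372) and 0.58 ± 0.23 for BAT replicate 4 alone (adjusted p = 0.143). The difference between these 2 genes' differences was not tested. Since Xist set BAT replicates 1 to 3 apart from the other replicates, the X-linked receptors are also given within replicate number 4, where Xist was low in both tissues. There the difference was -0.93, -0.79 and -0.72 for Tlr7 probe sets 1422010_at, 1419848_x_at and 1449640_at. It was 0.35 for Tlr8, and all are from 1 replicate each and with no test.

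Tlr9, the receptor for unmethylated CpG DNA that B cells and plasmacytoid dendritic cells carry, was not called. Its promoter window is shown beside those above, as that of a receptor with no called difference, with the same motifs in capitals.
Tlr9, chr9:106222348-106222597, plus strand: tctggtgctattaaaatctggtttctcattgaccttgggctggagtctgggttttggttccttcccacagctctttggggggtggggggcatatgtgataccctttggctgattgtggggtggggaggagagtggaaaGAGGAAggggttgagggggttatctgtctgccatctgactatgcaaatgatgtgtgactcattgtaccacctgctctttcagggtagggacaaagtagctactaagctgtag
The capitals are a GAGGAA at -112 to -107, the motif that Tlr1 also holds, and the window has 0 CpGs. Tlr9 stood at 0.44, 0.06, 0.05 and 0.06 in the BAT replicates, against -0.15, -0.18, -0.04 and 0.08 in the sWAT replicates. Only BAT replicate 1 stood clearly apart, and the groups overlapped. The difference was 0.22 ± 0.15 (adjusted p = 0.282), and 0.21 ± 0.12 without the arrays of low 5′ signal (adjusted p = 0.195). Over all 16 arrays Tlr9 ranged from -0.22 to 0.63, while the mean of the B cell list was -1.53 or lower in every BAT replicate, against 1.71 or higher in every sWAT replicate. Whether Tlr9 signal was above background on these arrays cannot be read from centred values.

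Tlr3, the endosomal receptor for double-stranded RNA, was called by neither of its 2 probe sets. The differences were -0.12 ± 0.13 for 1422782_s_at (adjusted p = 0.471) and -0.01 ± 0.24 for 1422781_at (adjusted p = 0.976). The replicates of both probe sets overlapped between tissues, and the 2 probe sets correlated at r = 0.09 over the 8 replicates, so they do not give a common pattern.

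Myd88, the adaptor of every member here except Tlr3, was lower in BAT. Its promoter window on GRCm38.p6 is shown because it is the common downstream gene of the receptors above, with capitals for the same motifs.
Myd88, chr9:119340019-119340268, minus strand: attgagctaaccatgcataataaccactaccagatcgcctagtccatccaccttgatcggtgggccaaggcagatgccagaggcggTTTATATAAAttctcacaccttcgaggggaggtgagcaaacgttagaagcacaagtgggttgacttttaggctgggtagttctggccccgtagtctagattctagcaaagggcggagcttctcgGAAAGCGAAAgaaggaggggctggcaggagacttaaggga
The capitals are a GAAANNGAAA match at -40 to -31, like that of Tlr6 but on the strand of the gene, and a pair of overlapping TATAAA matches between -164 and -155, a motif in 12.4% of the windows. Myd88 stood at -1.22, -0.26, -0.22 and 0.00 in the BAT replicates, against 0.44, 0.30, 0.08 and 0.78 in the sWAT replicates. The groups did not overlap, and BAT replicate 1 was far below the rest. On its 2 arrays that replicate read -0.52 and -1.91, the second being one of low 5′ signal. The difference was -0.82 ± 0.23, or 1.77-fold lower in BAT (adjusted p = 0.0309), and -0.76 ± 0.12 without the arrays of low 5′ signal (adjusted p = 0.00247). For BAT replicate 4 alone it was -0.40 ± 0.27 (adjusted p = 0.358). Over probe sets the call was lost without replicate 1, at a smaller difference of -0.55 (adjusted p = 0.0599). It was lost on the first arrays alone, also at -0.55 (adjusted p = 0.106). It was lost without replicate 2 or 4 too, but at larger differences of -0.91 and -0.84 from fewer samples (adjusted p = 0.0587 and 0.0691). Over genes it held without replicate 1 or 2 (adjusted p = 0.0419 and 0.0490). It was lost there without replicate 4 and on the first arrays (adjusted p = 0.0551 and 0.0809).

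**Figure D3:**
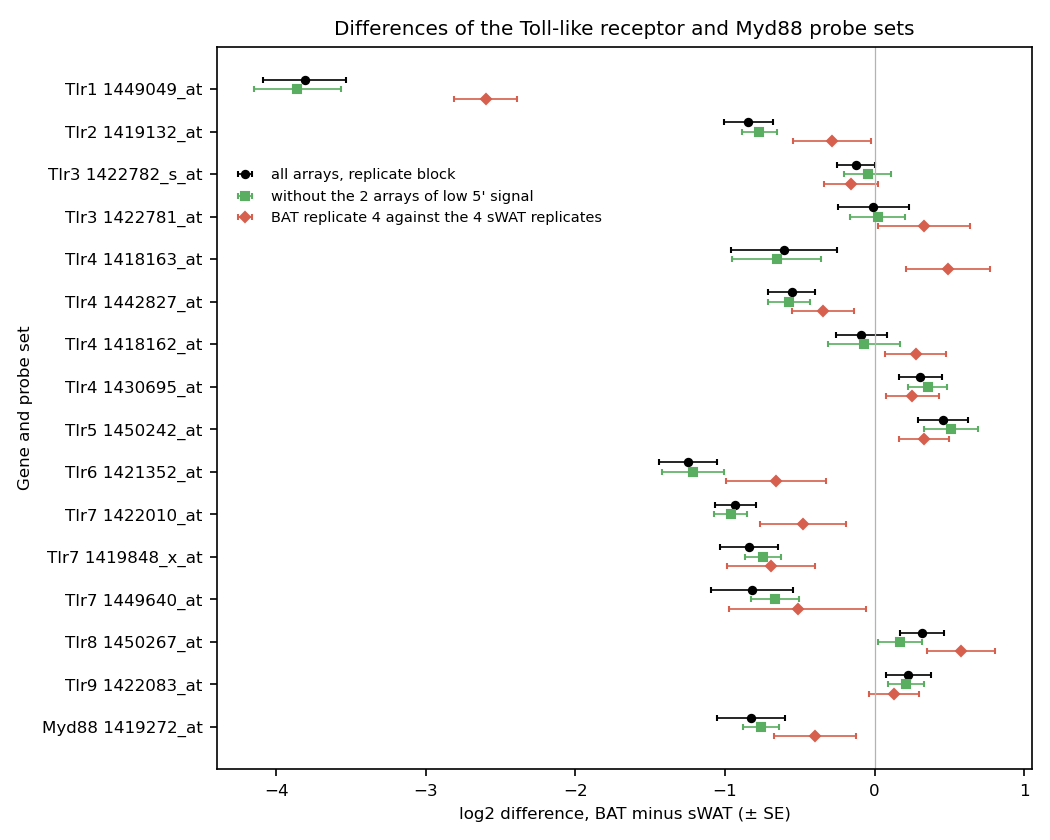
Differences of the 16 probe sets, BAT minus sWAT on the log2 scale with bars of 1 SE, from all arrays with the replicate block (black circles), without the 2 arrays of low 5′ signal (green squares) and for BAT replicate 4 against the 4 sWAT replicates (red diamonds). Tlr1 stays far below 0 in all 3 fits, whereas the differences of Tlr2, Tlr6, Tlr7 and Myd88 are closer to 0 for BAT replicate 4 alone.

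BAT replicate 4 was the highest BAT replicate in 7 of the 7 probe sets called lower and in 12 of all 16. Of all probe sets called lower on the array, it was the highest BAT replicate in 40.0%. BAT replicate 1 was the lowest BAT replicate in 3 of the 7 and in 7 of the 16. Over the 8 replicates, Myd88 correlated with Tlr2 at r = 0.96, Tlr6 with Tlr1 at 0.93, Tlr6 with Tlr2 at 0.92 and Tlr7 with Tlr1 at 0.91, as means over the probe sets of each gene. The points share 2 tissues, so a gene that separates them correlates with any other that does.

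The genes of the array whose 8 replicate values most resembled each receptor were sought by Pearson correlation, which describes likeness over 2 tissues of 4 replicates and nothing more. For Tlr1 they were Mki67, a proliferation marker, at r = 0.999, followed by Melk, a mitotic kinase, and Tmem229b, and 835 genes exceeded r = 0.95. For Tlr2 they were Cybb, the catalytic subunit of the phagocyte NADPH oxidase, at r = 0.993, Myo1f, a leukocyte myosin, and Cfb, complement factor B. For Tlr6 they were Abhd8, Irf5, a transcription factor of the receptors' own pathway, at r = 0.995, and Nans. For Tlr7 they were Foxp3, the regulatory T cell factor, at r = 0.986, Gpr83 and Smox. For Myd88 they were Ms4a7 at r = 0.988, Cdca7l and Ess2. Among the members that were not called as genes, Dpysl3, Dnajc18 and Olfml1 were most like Tlr4 and Tead2, Dop1b and Snx33 most like Tlr3. Cylc1, Tmem267 and Tulp2 were most like Tlr5, with 11 genes over r = 0.95, and Cbarp, Tfap2d and 2610027F03Rik most like Tlr9. For Tlr8 they were Cldn4, 6430562O15Rik and Lce1a2.

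The partners and signalling genes of the receptors were taken by role, each gene as the mean of its probe sets and adjusted over 18194 genes. Of 68 listed genes 61 were measured, of which 29 were lower in BAT, 3 were higher and 29 were not called. These are 47.5% and 4.92% of the measured genes, against 17.5% and 21.0% of all genes. Their median difference was -0.48, against 0.15 over all genes. With BAT replicate 4 alone 13 were lower and 0 higher, against 9.08% and 10.7% of all genes in that fit. With 3′ Gapdh and Actb as the scale 17 were lower and 1 was higher, against 10.4% and 10.4% of all genes. That fit again had 1 common standard error, so its calls follow the size of the difference. The paired test on the averaged replicates called 19 lower, against 9.55% of all genes.

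Of the other mouse receptors, Tlr13, an endosomal sensor of bacterial ribosomal RNA, stood at -1.64, -0.98, -0.60 and 0.22 in the BAT replicates, against 0.31, 0.04, -0.01 and 0.61 in the sWAT replicates. BAT replicate 4 lay among the sWAT values, and the difference of -0.98 ± 0.25 was called (adjusted p = 0.0206). Tlr13 is X-linked too, and within numbers 1 to 4 its differences were -1.94, -1.02, -0.59 and -0.38. Tlr12 differed by -0.05 ± 0.12 and was not called.

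Among 9 coreceptors and chaperones, 5 were lower in BAT (Ly86, Cd180, Hsp90b1, Unc93b1 and Lbp) and 1 was higher. Ly86, the soluble partner of the receptor-like Cd180, stood at -1.78, -1.89, -2.06 and -0.61 in the BAT replicates, against 0.60, 0.53, 1.31 and 1.01 in the sWAT replicates. The groups were well apart and the difference was -2.45 ± 0.26 (adjusted p = 0.00051). Cd180 itself, which modulates the response to lipopolysaccharide in B cells and macrophages, differed by -1.49 ± 0.15. Hsp90b1, the endoplasmic reticulum chaperone that folds most of the receptors, differed by -1.37 ± 0.14, and Unc93b1, which carries the nucleic acid sensors to endosomes, by -0.66 ± 0.16. The lipopolysaccharide arm around Tlr4 was mixed. Lbp, which binds lipopolysaccharide in plasma, was lower in BAT, at -0.48 ± 0.15 (adjusted p = 0.0436). Ly96, the subunit of the Tlr4 complex that holds lipid A, differed by -0.62 ± 0.23 (adjusted p = 0.0754) and Cd14 by -0.37 ± 0.21 (adjusted p = 0.189), and neither was called. Cnpy3, a folding partner of Hsp90b1, differed by -0.05 ± 0.17 and was not called. Cd36, a scavenger receptor and fatty acid transporter that also helps Tlr2 with Tlr6, was higher in BAT by 0.64 ± 0.14 (adjusted p = 0.0104).

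Of 4 measured adaptors other than Myd88, 3 were not called, at 0.11 ± 0.16 for Tirap, which bridges Myd88 to Tlr2 and Tlr4, 0.18 ± 0.15 for Ticam1, the adaptor of Tlr3, and 0.25 ± 0.13 for the inhibitory Sarm1. Pik3ap1, a B cell adaptor that links the receptors to PI3-kinase, was lower in BAT, at -1.41 ± 0.14. Among 15 kinases and ubiquitin ligases 6 were lower and 2 higher. Ikbke, a kinase of the interferon arm, had the largest difference at -2.78 ± 0.25, followed by the Pellino ligase Peli1 at -1.84 ± 0.14, whereas its relative Peli2 was higher in BAT by 1.32 ± 0.15. Ikbkg, the regulatory subunit of the NF-κB kinase, was also higher, by 0.46 ± 0.12, and its catalytic partner Ikbkb was lower, at -0.78 ± 0.13. Of the proteins that act directly after Myd88, Irak1 at -0.16 ± 0.11, Irak2 at 0.16 ± 0.18 and Traf6 at -0.0050 ± 0.14 were not called, and Irak4 was not analysed here.

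Of 5 transcription factors 3 were lower in BAT, namely the NF-κB subunit Rel at -1.19 ± 0.13, Irf7 at -1.07 ± 0.14 and Irf5 at -0.72 ± 0.13. Rela, at -0.79 ± 0.32, and Irf3, at -0.55 ± 0.21, were not called. Of 8 inhibitors 5 were lower. Among them were the inhibitory receptor Sigirr at -1.59 ± 0.21, the deubiquitinase Tnfaip3 at -1.17 ± 0.13 and the NF-κB inhibitor Nfkbia at -1.14 ± 0.13. Genes that restrain the pathway were thus among the lower ones, as were genes that drive it. Of 14 inducible targets 5 were lower, with the chemokines Ccl5 at -2.95 ± 0.32 and Cxcl10 at -1.54 ± 0.42 ahead of the cytokine Il1b at -0.69 ± 0.12. Cxcl10 stood at -2.57, -1.97, -1.46 and 0.79 in the BAT replicates, against 0.17, -0.15, 0.32 and 0.60 in the sWAT replicates, so that BAT replicate 4 was the highest of all. The classical readouts Tnf, at -0.32 ± 0.12, and Il6, at -0.42 ± 0.15, were not called. Of 4 measured interleukin-1 family receptor genes, which share Myd88 with the Toll-like receptors, 3 were lower in BAT, namely Il18r1 at -3.23 ± 0.17, Il18rap at -0.91 ± 0.16 and Il1r1 at -0.60 ± 0.15, and Il1rap, at -0.17 ± 0.14, was not called.

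**Figure D4:**
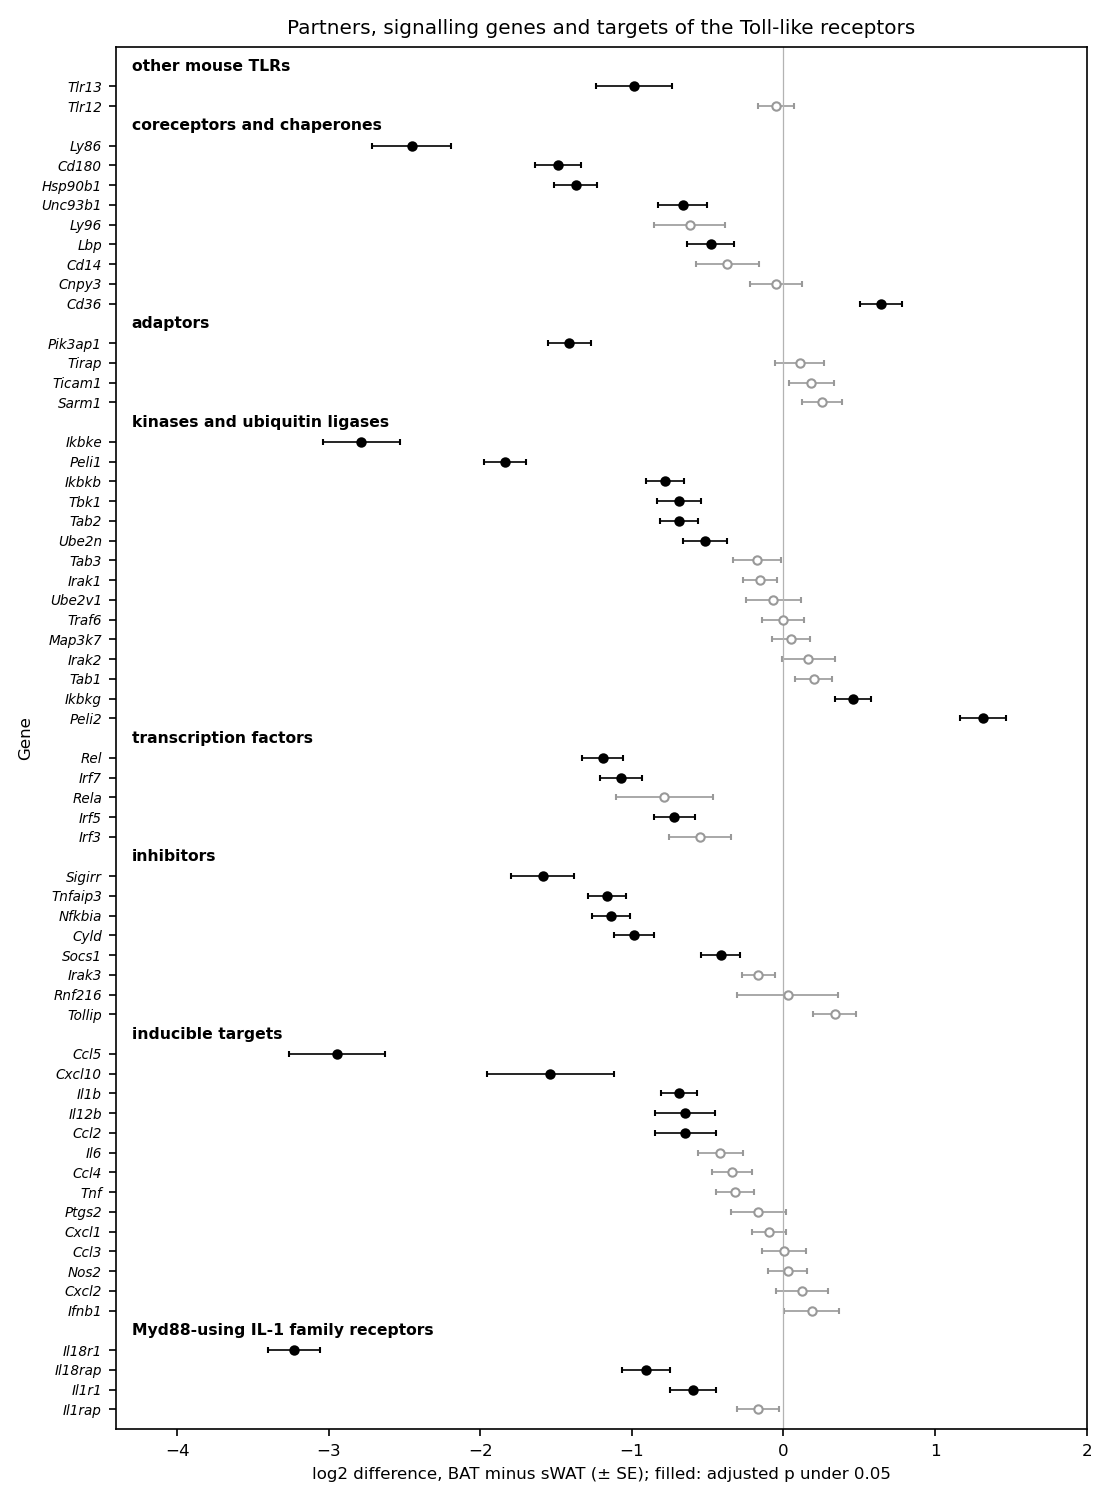
Differences of the 61 measured partners, signalling genes and targets, BAT minus sWAT on the log2 scale with bars of 1 SE, grouped by role, with filled points for an adjusted p under 0.05. Of the filled points 29 lie below 0 and 3 above it, namely Cd36, Ikbkg and Peli2.

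Markers of several immune cell types were also lower in BAT. Of 13 macrophage genes 8 were lower in BAT and 1 was higher, and the list averaged -1.39, -0.63, -0.37 and 0.22 in the BAT replicates, against 0.14, 0.33, -0.16 and 0.76 in the sWAT replicates. BAT replicate 4 lay within the sWAT range here, as it did for Tlr2. The exception was Cd163, a scavenger receptor of resident macrophages, at 1.82, 2.68, 2.98 and -0.11 in the BAT replicates, against -0.26, -0.37, 0.05 and -0.49 in the sWAT replicates. The B cell list, by contrast, was about as low in BAT replicate 4 as in the other BAT replicates. The T cell list ran from -1.72 to -0.99 over the BAT replicates and from 1.49 to 2.28 over the sWAT replicates, and the lymph node list from -1.58 to -1.35 over the BAT replicates and from 1.24 to 1.94 over the sWAT replicates. Of 8 plasmacytoid dendritic cell genes 6 were lower in BAT, and of 7 conventional dendritic cell genes 5 were. Of 9 neutrophil genes 3 were lower, and that list averaged -0.31, -0.03, -0.54 and 0.75 in the BAT replicates, against -0.42, -0.13, 1.11 and 2.45 in the sWAT replicates. The highest were sWAT replicates 3 and 4, and within numbers 1 and 2 the list was slightly higher in BAT. Whether these cells, the muscle fibre signal, the arrays of low 5′ signal or the sex-linked difference had a part in the receptor values was not tested.

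**Figure D5:**
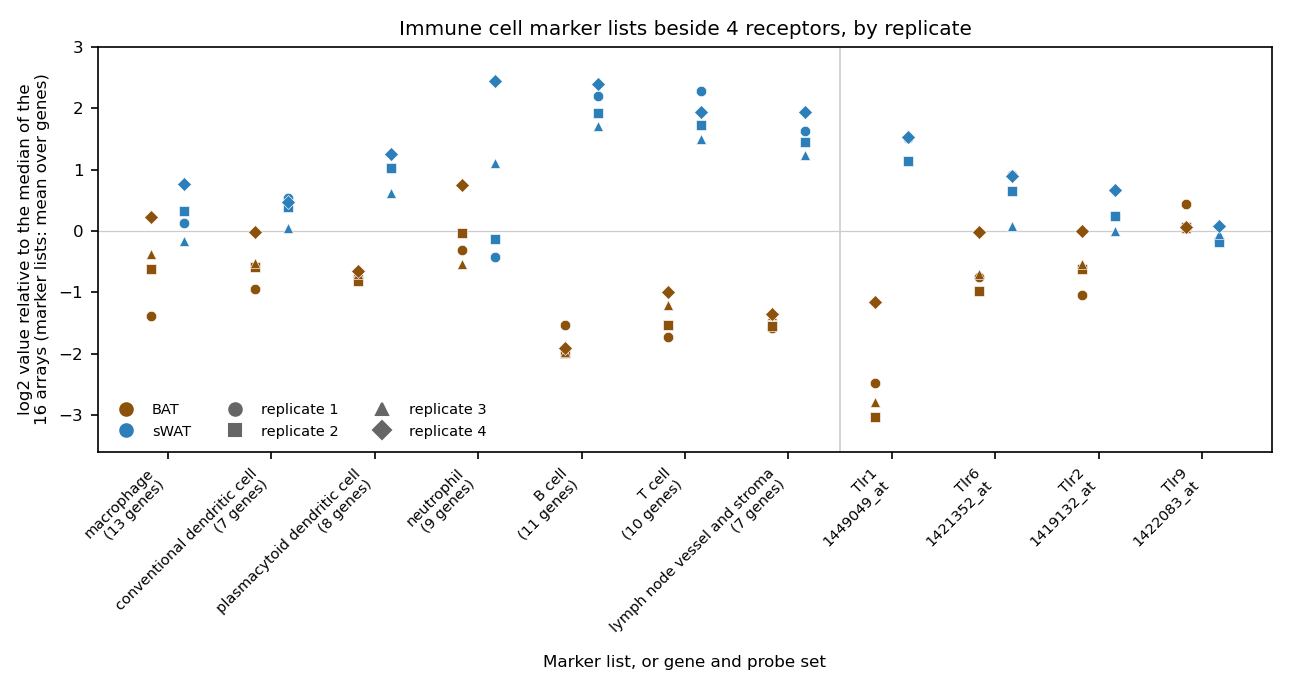
Mean log2 value of 7 immune marker lists and the values of 4 receptors in the 4 BAT replicates (brown, left) and the 4 sWAT replicates (blue, right), relative to the median of the 16 arrays, with marker shapes for replicate numbers. BAT replicate 4 (diamond) is at 0.22 for the macrophage list and at -1.92 for the B cell list, beside -1.15 for Tlr1 and 0.00 for Tlr2.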

How the data were processed

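RNA had been hybridized to Affymetrix mouse genome arrays. In GeneSpring the authors applied RMA and quantile normalization, and the deposited values are log2 values centred on each probe set's median over the 16 arrays, which was checked in the file. Centred values hold no signal level. Since the arrays of a replicate were averaged, the precision rests on the 4 replicates per tissue. The platform annotation gave 1 symbol for 34958 of 45101 probe sets.

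After averaging both arrays of a replicate, BAT minus sWAT was fitted with limma 3.58.1 in R 4.3.3 (lmFit, eBayes), with a block on replicate number, with Benjamini-Hochberg adjustment of the p-values. Pathway genes were means over their probe sets with 1 symbol, fitted and adjusted over 18194 genes. Whether the replicates come from separate animals is not stated in the labels, so the p-values measure the spread between these samples. Members and lists were chosen with earlier results of these data known. The text names all members, from each list the largest differences in either direction and the direct partners of a member, and the 3 genes most like each member by Pearson correlation. Other genes named, such as Cd163, were chosen after their values were seen.

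Promoter windows came from RefSeq (GRCm38.p6), which gave entries for 8 of the 10 members. Also fitted were the values with no block, from the first or second arrays only, and without the arrays of low 5′ signal. Further fits used 3 rescalings, a paired t-test over the averaged replicates of equal number, and left out each replicate number. BAT replicate 4 alone was fitted too, chosen after seeing the data. That last fit leaves BAT with 1 sample, which is assumed to vary like sWAT. Python 3.11.15 with matplotlib 3.10.9 drew the figures.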

Additional observations from a re-analysis of the deposited data

Results flagged for a closer look

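In 2 of 32 groups of 4 replicates 1 value lay far from the other 3, by Dixon's criterion, which chance meets in about 1 group in 20. Tlr1 stood at 1.15 in sWAT replicate 2, below the other sWAT replicates, with a gap of 0.853 of the group's range. Tlr9 stood at 0.44 in BAT replicate 1, above the other BAT replicates, with a gap of 0.96 of the range.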

How the results depend on the processing

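The 7 member probe sets lower in BAT were also called without the replicate block, without the arrays of low 5′ signal, after centring and after a repeated quantile normalization. Without the block the standard error was larger for Tlr1 (0.36), Tlr2 (0.22), Tlr6 (0.24), Tlr7 1422010_at (0.20) and Myd88 (0.26). It was smaller for Tlr4 1442827_at (0.14) and Tlr7 1419848_x_at (0.17). The adjusted p of the 7 in that limma fit ran from 5.35e-05 for Tlr1 to 0.0322 for Myd88. With 3′ Gapdh and Actb as the scale, 3 were called (Tlr1, Tlr6 and Tlr7 1422010_at). The paired t-test over the averaged replicates called 2 (Tlr1 and Tlr7 1422010_at). Leaving out a replicate number gave 5 to 6, with 12.7% to 16.8% of all probe sets called lower. Without the replicate block 1 member probe set (Tlr5) was called higher, against 0 with it. Calls higher over all probe sets rose too, to 21.7% from 15.1%. For pathway genes the counts of 29 lower and 3 higher became 17 and 1 on the 3′ scale and 13 and 0 for BAT replicate 4 alone, and the methods' paired test called 19 lower. Calls lower over all genes dropped too, to 10.4%, 9.08% and 9.55% in these 3 fits, against 17.5%. Leaving out a replicate number gave 20 to 28 lower and 2 to 3 higher. Over all genes these fits called 12.6% to 16.9% lower and 12.9% to 20.3% higher. Equal numbers in the tissues deviated together at r = -0.23, 0.06, -0.35 and 0.23, and BAT replicate 1 deviated most with sWAT replicate 3 (r = 0.52), where each holds an array of low 5′ signal. For numbers 1 to 3 Xist was high in BAT and low in sWAT, and the Y-linked Eif2s3y ran the other way. Samples of equal number there do not read as 1 animal, so the block does not pair tissues within animals. For number 4 these values do not settle whether it marks an animal.

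Of the members' differences, only ones that were not called turned sign. The Tlr3 gene mean was 0.086 and the Tlr4 gene mean 0.17 for BAT replicate 4 alone, and leaving out a replicate number gave -0.19 to 0.044 for the Tlr3 gene mean. Tlr3 1422782_s_at was 0.090 on the second arrays. Tlr3 1422781_at was 0.22 on the first arrays, 0.019 without low 5′ signal, 0.015 after quantile normalization, 0.014 on the 3′ scale, 0.33 for BAT replicate 4 alone, and -0.23 to 0.21 when a replicate number was left out. For BAT replicate 4 alone Tlr4 1418163_at was 0.49 and Tlr4 1418162_at 0.28, and 1418162_at also gave 0.20 on the second arrays and -0.19 to 0.069 when a replicate number was left out. The causes were not tested. Without signal levels, a receptor near background cannot be told from one that does not differ.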
